A study of Mus musculus with 32 samples.

Results

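The response of bone marrow derived macrophages to acetylated LDL (AcLDL) was compared between 2 inbred strains in the low-dose experiment of the series, as the response of DBA/2 cells minus the response of AKR cells. All mice lacked apolipoprotein E (ApoE-/-), were on chow diet and were 16 weeks old, and the marrow cells were grown in L-cell conditioned medium, a source of macrophage colony stimulating factor. The low-dose cells were from males, and loaded dishes received 50 µg/ml AcLDL for 24 h. The groups were loaded DBA/2, unloaded DBA/2, loaded AKR and unloaded AKR cells, with 4 Illumina arrays each. Separate mice are not stated for the dishes within a group, in the labels or in the methods. The errors and p-values therefore measure the spread between dishes, which may be technical.

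Of the 32 arrays in the series, 16 belonged to the low-dose experiment and 14 of these were used. The 14 were selected on their measured values. The array labelled AKR unloaded replicate 1 correlated less with its own group (mean Pearson's r = 0.966) than with the loaded AKR arrays (0.986), and the array labelled AKR loaded replicate 2 correlated less with its own group (0.968) than with the unloaded AKR arrays (0.985). Their differences between both correlations were -0.0198 and -0.0168, and the next arrays, AKR unloaded replicates 2 and 4, stood on the other side at 0.0097. Each DBA/2 group therefore held 4 arrays and each AKR group 3. Since 2 arrays were left out for values that belong to the comparison, the 14-array interaction and AKR response are given as descriptions with their standard errors and without p-values. Whether the labels of these 2 arrays were exchanged is not given in the sources used here, and the fit by labels keeps each of them in the group its values stand apart from. Tests come from fits in which no array was left out for its values. These were loading in the 8 DBA/2 arrays and the interaction over all 16 low-dose arrays by their labels. The interaction over the 16 arrays of the high-dose experiment was tested as well. The named genes were picked in the 14-array fit, so the 2 low-dose tests reuse arrays that picked them.

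Macrophages take up AcLDL through scavenger receptors and store its cholesterol as ester droplets, the hallmark of the foam cell of atherosclerotic lesions. Free cholesterol in the endoplasmic reticulum (ER) shuts down sterol synthesis through the SREBP pathway, and its oxidized derivatives activate LXR, which drives sterol export. Excess free cholesterol, a shortage of amino acids or unfolded proteins can all raise translation of the transcription factor ATF4, which with CHOP (Ddit3) induces genes of amino acid import and synthesis, tRNA charging and cell death. A strain by loading interaction picks out transcripts whose response to loading depended on the strain. An interaction below 0 means that the DBA/2 response was lower than the AKR response, whether through a smaller rise, a larger fall or a change in the opposite direction.

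Of 25697 probes on the array, 13911 had a group mean above the median of all values (4.29 log2 units) and were fitted with limma. Probes over sequence variants between the strains were not removed. An adjusted p of 0.01 served over the 14 arrays as a descriptive limit for listing probes as called, and is no test of the interaction because the arrays were selected. By this limit 711 probes (5.11%) were called, 380 above 0 and 331 below 0. By its labels alone, with all 16 arrays, the same model called 112 of 13732 probes (0.816%), 64 above 0 and 48 below 0. Strain by loading held 7.98% of the variation among the 14 arrays, less than strain (37.2%), loading (33.1%) and the spread within groups (21.7%). Each gene was read from its kept probe with the highest mean, which gave 9472 genes with a median interaction of 0.01 log2 units. The interaction was called above 0 for 300 genes (3.17%) and below 0 for 245 genes (2.59%). Of these 545 genes, 536 had the same sign over all 16 labelled arrays, and 93 were also called there in the same direction. The 16 include the 14 arrays on which the genes were called, so a shared sign is no independent support.

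The called genes took different shapes. The DBA/2 response was the larger in size for 216 genes and the AKR response for 329. In 304 genes (55.8%) the responses of the strains had opposite signs, among them 52 whose response was called in both strains. The response was called in DBA/2 cells alone for 164 genes, in AKR cells alone for 228, in both strains in the same direction for 90, and in neither for 11. Calling genes by the difference between the strains itself favours opposite signs and responses called in a single strain. The shares of these shapes over all genes were not counted. In absolute size the difference between the strains was larger in loaded cells for 340 of the called genes and larger in unloaded cells for 205. These counts ignore its sign, and some genes reversed their order, such as Slc7a5 (DBA/2 minus AKR 2.34 unloaded and -1.90 loaded). A difference between strains was called in loaded cells alone for 262 genes, in unloaded cells alone for 142 and in both for 121. The levels of 15 called genes lay below the median of all values in both groups of a strain, so a response there was measured at a level low on the array. Of 172 called genes with more than 1 kept probe, 152 had all their probes on the same side of 0, and 46 had all of them called in the same direction.

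**Figure D1:**
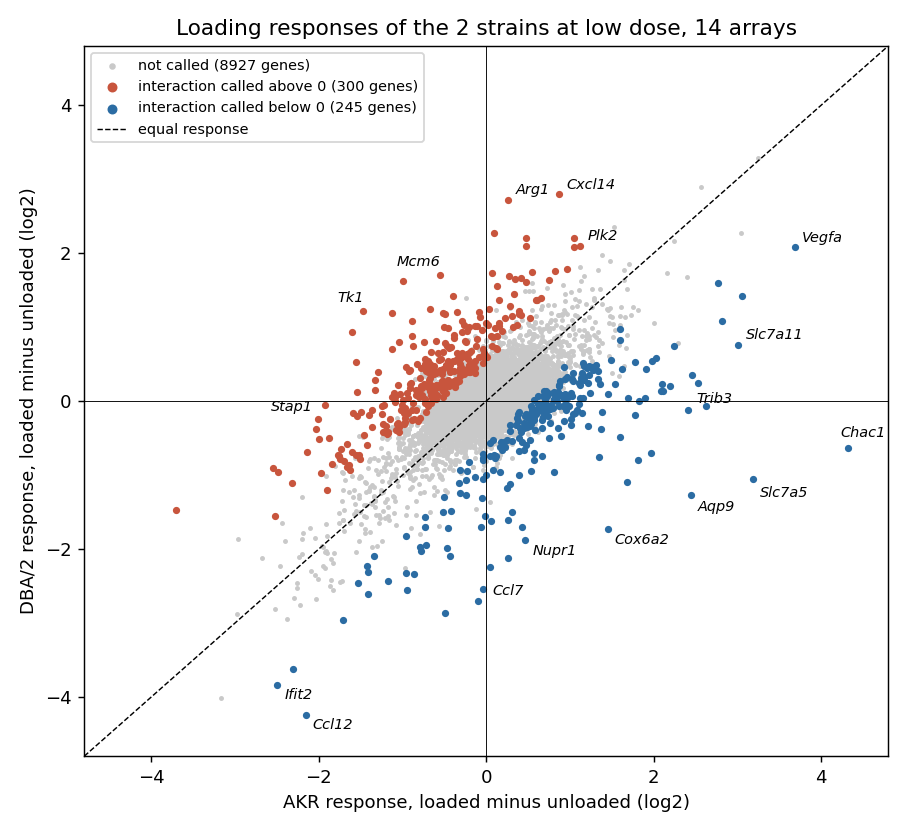
Each point is 1 of 9472 genes, with the loading response of AKR cells on the x axis and of DBA/2 cells on the y axis, both in log2 units from the 14-array fit. The 300 genes called above 0 lie above the dashed line of equal response and the 245 called below 0 lie under it, with Chac1 and Slc7a5 far to the right and Arg1 and Cxcl14 at the top.

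Of 17 genes kept of the ATF4 and CHOP stress response, 11 were called below 0 and 0 above 0 (2.59% and 3.17% of all genes), and the median interaction was -1.25, against 0.01 for all genes. The median response was -0.17 in DBA/2 cells and 0.81 in AKR cells. Over the 8 DBA/2 arrays alone, 5 of the 17 fell and 1 rose on loading (8.14% and 9.39% of all genes tested), while over the 14 arrays the AKR response was called above 0 for 14 and below 0 for 1 (10.1% and 9.63% of all genes). With all 16 arrays by their labels, Nupr1 was the 1 gene of the list with a called interaction, against 112 of all 13732 probes.

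Chac1, a glutathione-degrading enzyme induced by ATF4, had 6.46, 6.69, 6.80 and 6.86 log2 units in loaded DBA/2 cells, 7.33, 6.83, 7.41 and 7.75 in unloaded DBA/2 cells, 8.90, 9.31 and 9.56 in loaded AKR cells, and 5.62, 4.79 and 4.41 in unloaded AKR cells. The 3 loaded AKR arrays lay above all others and the 3 unloaded AKR arrays below all others, with the DBA/2 groups in between. Its DBA/2 response was -0.63 ± 0.23, its AKR response 4.31 ± 0.27 (19.9-fold) and its interaction -4.94 ± 0.35 (log2 ± SE). Ddit3, which encodes CHOP, had 7.64, 7.77, 7.91 and 7.76 in loaded DBA/2 cells, 8.41, 8.43, 8.6 and 8.42 in unloaded DBA/2 cells, 8.99, 9.24 and 9.26 in loaded AKR cells, and 7.21, 7.26 and 7.11 in unloaded AKR cells. No array of any Ddit3 group overlapped another group. Ddit3 fell by 0.70 ± 0.09 in DBA/2 cells (limma, adjusted p = 1.49e-04), its AKR response was 1.97 ± 0.10, and its interaction was -2.66 ± 0.14. A further kept probe of Ddit3 gave -2.31.

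Trib3, a pseudokinase that binds ATF4 and AKT, had 4.92 to 5.37 in loaded DBA/2 cells, 5.11 to 5.39 in unloaded DBA/2 cells, 6.72 to 7.05 in loaded AKR cells and 4.12 to 4.71 in unloaded AKR cells. The DBA/2 groups overlapped and the AKR groups did not. The interaction of Trib3 was -2.53 ± 0.20. Nupr1, a stress-induced chromatin protein, was shaped differently: it had 7.78, 8.16, 8.10 and 8.04 in loaded DBA/2 cells, 9.70, 9.98, 9.99 and 9.92 in unloaded DBA/2 cells, 9.11, 9.23 and 9.39 in loaded AKR cells and 8.64, 8.79 and 8.89 in unloaded AKR cells. Most of its interaction of -2.35 ± 0.16 came from DBA/2 cells, where it fell by 1.88 ± 0.11 (adjusted p = 2.42e-07). It was also called over all 16 labelled arrays (-2.09 ± 0.22, adjusted p = 6.6e-05). The other called members were Jdp2, Sesn2, Ppp1r15a, Atf4, Eif4ebp1, Atf5 and Ddit4, with interactions between -1.54 and -1.03. Atf4 itself had -1.31 and Ppp1r15a, the phosphatase subunit that reverses the block of translation, -1.36. The 6 members not called lay between -0.97 (Stc2) and 0.49 (Atf3), with Cebpg at 0.06, Bbc3 at -0.32, Cebpb at -0.43 and Vldlr at -0.87.

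**Figure D2:**
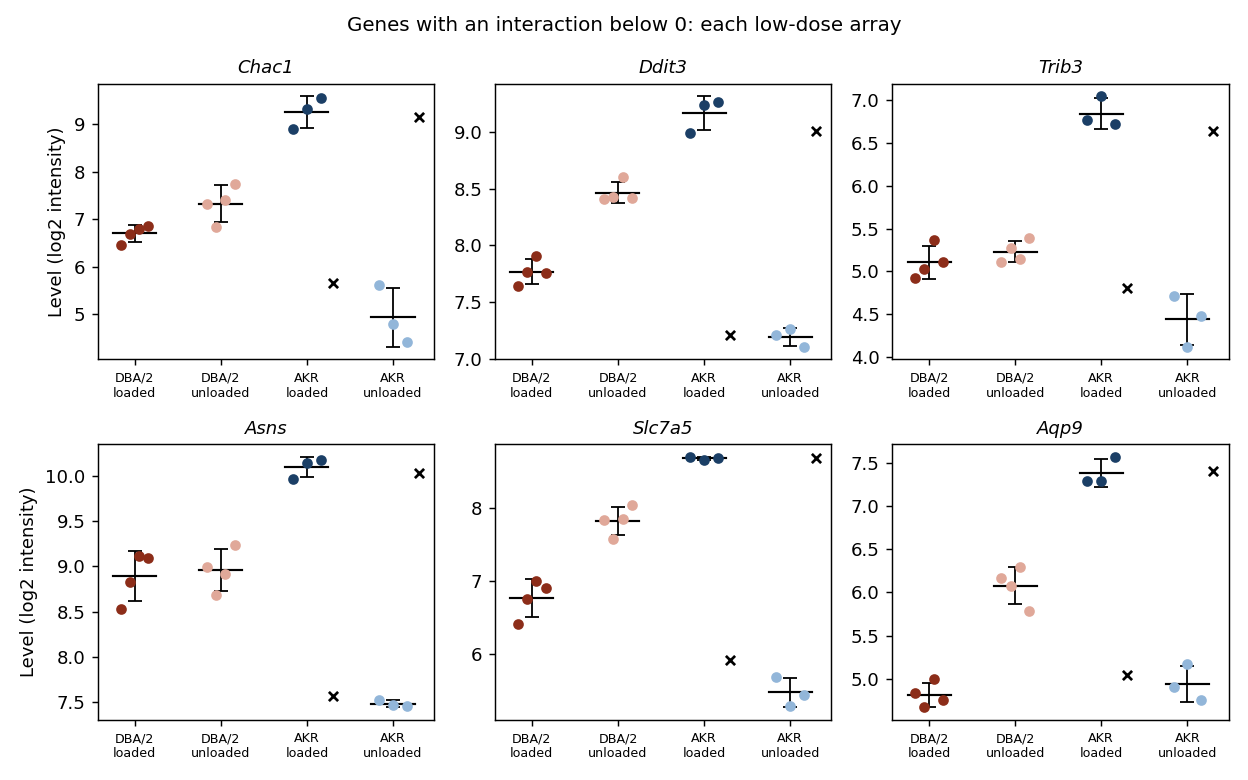
The level of 6 genes in each low-dose array (y axis, log2 intensity), by group, with filled points for the 14 arrays used, bars for the mean and SD over them, and crosses for the 2 arrays left out. In each panel the loaded AKR arrays are the highest group, and the crosses lie near the other AKR group.

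The 2 arrays left out were chosen for lying near the other AKR group, and their levels in these genes follow that choice. The array labelled AKR unloaded 1 had 9.15 log2 units of Chac1, 9.01 of Ddit3 and 6.64 of Trib3, and the array labelled AKR loaded 2 had 5.66, 7.21 and 4.81. With both kept under their labels, the interactions were -2.99 ± 1.22 for Chac1, -1.72 ± 0.58 for Ddit3 and -1.47 ± 0.66 for Trib3 (adjusted p = 0.235, 0.149 and 0.297).

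Genes that ATF4 can bind often hold the letters TGATGNAA, in which parts of a C/EBP and an ATF site are joined, and these were searched on both strands in RefSeq promoters of the mouse build GRCm38.p6, from 250 bases before to 50 after each start. A match is a description of the sequence and not a site. It was found for 1219 of 27025 genes with a promoter in the table (4.51%) and for 240 of 7761 genes tested here that had one (3.09%). It was found for 6 of 16 genes of the stress response list, 5 of 12 aminoacyl-tRNA synthetases, 3 of 10 amino acid transporters and 2 of 9 genes of amino acid synthesis. Among all called genes it was found for 22 of 190 below 0 (11.6%) and 6 of 241 above 0 (2.49%). Shown are the promoters of the 4 named members of these lists with a match and an AKR response above 2 log2 units, a choice made after the values were seen, with the matching letters in capitals. Their DBA/2 responses differed, since Slc7a11 rose and Chac1, Trib3 and Asns did not pass the threshold. Among the other named genes, Aqp9, Nupr1, Slc1a4, Aars, Herpud1 and Manba also had a match, and the interaction of Manba was above 0 (0.79). The 4 promoters shown lie at chr2:119350992-119351291 on the + strand (Chac1), chr2:152344011-152344310 on the - strand (Trib3), chr6:7693160-7693459 on the - strand (Asns) and chr3:50443564-50443863 on the - strand (Slc7a11).
Chac1: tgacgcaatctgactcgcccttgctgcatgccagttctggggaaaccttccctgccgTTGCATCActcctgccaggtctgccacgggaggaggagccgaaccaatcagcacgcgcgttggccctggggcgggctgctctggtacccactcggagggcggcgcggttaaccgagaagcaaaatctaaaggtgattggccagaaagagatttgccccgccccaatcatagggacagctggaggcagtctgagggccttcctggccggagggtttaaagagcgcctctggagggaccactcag
Trib3: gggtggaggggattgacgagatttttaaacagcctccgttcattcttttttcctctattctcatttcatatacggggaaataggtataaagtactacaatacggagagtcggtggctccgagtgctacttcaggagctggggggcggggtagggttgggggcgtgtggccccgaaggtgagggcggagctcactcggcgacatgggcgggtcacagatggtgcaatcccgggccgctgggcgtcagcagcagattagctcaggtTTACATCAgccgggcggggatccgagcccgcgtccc
Asns: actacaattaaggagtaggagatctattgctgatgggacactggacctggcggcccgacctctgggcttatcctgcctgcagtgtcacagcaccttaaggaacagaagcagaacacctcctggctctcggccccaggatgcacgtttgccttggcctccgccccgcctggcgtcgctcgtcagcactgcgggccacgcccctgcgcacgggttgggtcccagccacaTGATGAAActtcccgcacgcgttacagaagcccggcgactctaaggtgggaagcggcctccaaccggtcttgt
Slc7a11: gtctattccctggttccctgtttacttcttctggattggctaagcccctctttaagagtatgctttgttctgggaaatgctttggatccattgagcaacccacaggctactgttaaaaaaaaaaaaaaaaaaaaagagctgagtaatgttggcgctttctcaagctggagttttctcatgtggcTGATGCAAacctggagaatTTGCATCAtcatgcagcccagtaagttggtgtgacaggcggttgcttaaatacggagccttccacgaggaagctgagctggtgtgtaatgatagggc
The match lay on the reverse strand in Chac1 and Trib3 and on the forward strand in Asns, and Slc7a11 had a match on each strand. No match was found in the window of Ddit3.

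Of 14 amino acid transporters kept, 5 were called below 0 and 0 above 0 (2.59% and 3.17% of all genes), with a median of -0.34. The 9 others lay between -0.56 (Slc3a2) and 0.49 (Slc7a3). Slc7a5 encodes the large neutral amino acid transporter LAT1 and had 6.41, 6.75, 7.0 and 6.91 in loaded DBA/2 cells, 7.83, 7.57, 7.85 and 8.03 in unloaded DBA/2 cells, 8.69, 8.65 and 8.67 in loaded AKR cells, and 5.70, 5.30 and 5.45 in unloaded AKR cells. The groups did not overlap, and the strain that was lower without loading was higher with it. Slc7a5 fell by 1.05 ± 0.14 in DBA/2 cells (adjusted p = 1.43e-04), its AKR response was 3.18 ± 0.15 (9.09-fold), and its interaction was -4.24 ± 0.20. Slc1a4, a carrier of alanine, serine and cysteine, fell by 1.09 ± 0.12 in DBA/2 cells (adjusted p = 4.7e-05), against an AKR response of 1.68 ± 0.15, whose unloaded mean of 4.11 lay below the median of all values. Slc7a11, the cystine transporter that supplies glutathione synthesis, rose in DBA/2 cells too, by 0.76 ± 0.18 (adjusted p = 0.00667), against 3.01 ± 0.22 in AKR cells. Slc6a9, a glycine transporter (-1.99), and Slc7a2, a carrier of basic amino acids (-0.79), were the other called members. Slc3a2, the partner chain of Slc7a5 and Slc7a11, had an interaction of -0.56 and was not called.

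Of 10 genes kept of amino acid and one-carbon synthesis, 6 were called below 0 and 0 above 0 (2.59% and 3.17% of all genes). The median was -0.90. Asparagine synthetase (Asns) had 8.53, 8.83, 9.12 and 9.09 in loaded DBA/2 cells, 8.99, 8.68, 8.92 and 9.24 in unloaded DBA/2 cells, 9.97, 10.15 and 10.18 in loaded AKR cells, and 7.52, 7.46 and 7.45 in unloaded AKR cells. The DBA/2 groups overlapped each other, between the levels of the AKR groups. Its 3 kept probes had interactions of -2.69 to -1.79. Mthfd2, a mitochondrial folate enzyme, had an interaction of -2.09 ± 0.19, and Phgdh, the entry enzyme of serine synthesis, -1.85 ± 0.20. Psat1, Shmt2 and Aldh18a1 were the other called members (-1.47, -0.92 and -0.88).

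The 18 cytosolic aminoacyl-tRNA synthetases kept, which charge tRNAs with their amino acids, had 8 called below 0 and 0 above 0 (2.59% and 3.17% of all genes). Their median interaction was -0.55. The median response was 0.05 in DBA/2 cells and 0.74 in AKR cells. Sars had 6.93 to 7.07 in loaded DBA/2 cells, 7.18 to 7.32 in unloaded DBA/2 cells, 7.99 to 8.03 in loaded AKR cells and 6.83 to 7.11 in unloaded AKR cells, with an interaction of -1.26 ± 0.12. Aars had -1.21 ± 0.13 and Eprs -1.11 ± 0.17, and their DBA/2 responses were -0.13 ± 0.08 for Aars and 0.04 ± 0.11 for Eprs, against AKR responses above 1 log2 unit in both. Qars and Farsa (0.01 and 0.04) lay at the median of all genes.

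Of 15 ER chaperones and folding genes kept, 3 were called below 0 and 0 above 0 (2.59% and 3.17% of all genes), with a median of -0.53. Hspa5, which encodes the chaperone BiP, had an interaction of -0.23 and was not called. Herpud1, a membrane protein of ER-associated degradation, had 8.98 to 9.11 in loaded DBA/2 cells, 9.96 to 10.43 in unloaded DBA/2 cells, 10.37 to 10.51 in loaded AKR cells and 10.12 to 10.27 in unloaded AKR cells. The loaded DBA/2 arrays lay below all others. Herpud1 fell by 1.17 ± 0.11 in DBA/2 cells (adjusted p = 9.46e-06), and its interaction was -1.42 ± 0.15 over the 14 arrays and -1.26 ± 0.17 over all 16 by their labels (adjusted p = 5.75e-04). The co-chaperone Dnajb9 (-1.21 ± 0.19) differed through its AKR response of 1.04 ± 0.15. The third called member, the disulfide isomerase P4hb (-0.55 ± 0.12), lost its call when any of 12 of the 14 arrays was left out.

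Other genes with a large interaction below 0 have roles outside these pathways. Aqp9, a channel for water, glycerol and urea, had 4.83, 4.67, 5.0 and 4.75 in loaded DBA/2 cells, 6.17, 6.07, 6.29 and 5.79 in unloaded DBA/2 cells, 7.29, 7.29 and 7.57 in loaded AKR cells, and 4.90, 5.17 and 4.75 in unloaded AKR cells. Loaded DBA/2 and unloaded AKR cells overlapped at the low end, and the other groups stood apart from them. Aqp9 fell by 1.27 ± 0.12 in DBA/2 cells (adjusted p = 1.07e-05), against an AKR response of 2.44 ± 0.14 (5.43-fold). Cox6a2, a cytochrome c oxidase subunit best known from heart and skeletal muscle, fell by 1.73 ± 0.15 in DBA/2 cells (adjusted p = 6.44e-06), against 1.45 ± 0.16 in AKR cells. Its interaction was -3.18 ± 0.22 over the 14 arrays and -2.47 ± 0.47 over all 16 (adjusted p = 0.00918). Slc25a33, a mitochondrial pyrimidine nucleotide carrier, differed through AKR cells, with a DBA/2 response of -0.18 ± 0.09 against 1.77 ± 0.10 in AKR cells. Gch1, the entry enzyme of tetrahydrobiopterin synthesis, fell by 0.76 ± 0.10 in DBA/2 cells (adjusted p = 1.72e-04), against an AKR response of 1.34 ± 0.13. Ifitm6, a member of the interferon-induced transmembrane family, fell by 0.80 ± 0.13 (adjusted p = 7.8e-04), against 1.81 ± 0.14.

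Cd86, a costimulatory molecule for T cells, had 6.65, 7.15, 7.04 and 7.07 in loaded DBA/2 cells, 8.62, 8.78, 8.58 and 8.72 in unloaded DBA/2 cells, 7.92, 7.90 and 8.05 in loaded AKR cells, and 7.56, 7.37 and 7.66 in unloaded AKR cells. Its level was highest in unloaded and lowest in loaded DBA/2 cells, with all AKR arrays in between. Cd86 fell by 1.70 ± 0.11 in DBA/2 cells (adjusted p = 8.31e-07), and its interaction was -2.13 ± 0.17 over the 14 arrays and -1.88 ± 0.21 over all 16 (adjusted p = 1.15e-04). The 3 kept probes of Cd86 had interactions of -2.26 to -1.69. The Fc receptor Fcgr4, which binds IgG2 antibodies in the mouse, followed the same order: 9.43 to 9.69 in loaded DBA/2 cells, 11.05 to 11.45 in unloaded DBA/2 cells, 9.98 to 10.13 in loaded AKR cells and 9.72 to 9.80 in unloaded AKR cells. Fcgr4 fell by 1.61 ± 0.11 in DBA/2 cells (adjusted p = 8.73e-07), with an interaction of -1.87 ± 0.15. Of the 5 Fc receptor genes kept it was the 1 called. Fcgr2b (-0.61 ± 0.14) and Fcer1g (-1.33 ± 1.07) lay below 0 too, and Fcgr1 and Fcgr3 had interactions of 0.39 and 0.24.

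Of 15 chemokines kept, 4 were called below 0 and 1 above 0 (2.59% and 3.17% of all genes). Ccl12, a ligand of CCR2, had 6.44, 6.26, 6.57 and 6.71 in loaded DBA/2 cells, 10.57, 10.75, 10.95 and 10.66 in unloaded DBA/2 cells, 7.51, 7.62 and 7.52 in loaded AKR cells, and 9.57, 9.70 and 9.85 in unloaded AKR cells. It was lower with loading in both strains and no groups overlapped, but the DBA/2 groups were further apart. Ccl12 fell by 4.24 ± 0.12 in DBA/2 cells (18.8-fold, adjusted p = 1.77e-09), against an AKR response of -2.16 ± 0.13. Ccl7, another ligand of CCR2, had 7.19 to 7.74 in loaded DBA/2 cells, 9.68 to 10.22 in unloaded DBA/2 cells, 7.65 to 8.44 in loaded AKR cells and 7.62 to 8.24 in unloaded AKR cells. It fell by 2.54 ± 0.16 in DBA/2 cells (adjusted p = 3.95e-07), while its AKR response was -0.04 ± 0.22. Ccl2, the main ligand of CCR2, was called too (-1.11). The neutrophil attractant Cxcl2 showed the other pattern, with a DBA/2 response of 0.13 ± 0.21 against 2.09 ± 0.24 in AKR cells. Of 4 chemokine receptors kept, Ccrl2 was called below 0 (-0.97 ± 0.22), with an AKR response of 1.21 ± 0.17.

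Cxcl14, a chemokine made by many epithelia, was the chemokine called above 0. It had 9.33, 9.12, 9.21 and 8.96 in loaded DBA/2 cells, 6.29, 6.30, 6.53 and 6.29 in unloaded DBA/2 cells, 5.09, 5.09 and 5.02 in loaded AKR cells, and 4.44, 3.99 and 4.16 in unloaded AKR cells. All DBA/2 arrays lay above all AKR arrays, and the unloaded AKR mean (4.2) lay below the median of all values. Cxcl14 rose by 2.80 ± 0.10 in DBA/2 cells (6.96-fold, adjusted p = 8.87e-09), against an AKR response of 0.87 ± 0.12. Its interaction was 1.93 ± 0.16 over the 14 arrays, 2.15 by its further probe, and 2.27 ± 0.26 over all 16 arrays (adjusted p = 1.15e-04). Arg1, which hydrolyses arginine and marks alternative activation, had 7.08, 5.88, 5.74 and 5.99 in loaded DBA/2 cells, 3.59, 3.49, 3.07 and 3.66 in unloaded DBA/2 cells, 4.00, 3.95 and 4.14 in loaded AKR cells, and 4.02, 3.73 and 3.56 in unloaded AKR cells. Only the loaded DBA/2 arrays stood above 5 log2 units. The means of the other 3 groups lay below the median of all values, so the size of its rise rests on a level low on the array and may be understated. Arg1 rose by 2.72 ± 0.25 in DBA/2 cells (adjusted p = 9.46e-06), and its interaction was 2.74 ± 0.36 over all 16 arrays by their labels (adjusted p = 3.98e-04).

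Interferon-stimulated genes, which block viral replication, were lower with loading in both strains. Of 25 kept, 24 fell in the 8 DBA/2 arrays (8.14% of all genes tested). Over the 14 arrays 22 had an AKR response called below 0 (9.63% of all genes). The median response was -2.03 in DBA/2 cells and -1.53 in AKR cells. Only 6 of the 25 had a called interaction, all below 0 (2.59% of all genes), with a median of -0.29 over the list. Ifit2 had 6.13 to 6.46 in loaded DBA/2 cells, 9.88 to 10.52 in unloaded DBA/2 cells, 5.85 to 5.93 in loaded AKR cells and 8.25 to 8.58 in unloaded AKR cells. The strains lay closer with loading (0.38 log2 units) than without it (1.72). Ifit2 fell by 3.84 ± 0.14 in DBA/2 cells (adjusted p = 8.87e-09), against an AKR response of -2.50 ± 0.15, Isg15 fell by 3.63 ± 0.19 against -2.31 ± 0.19, and the deconjugase Usp18 fell by 2.96 ± 0.11 against -1.71 ± 0.14. With all 16 arrays, adjusted p was 0.0936 for Ifit2, 0.0936 for Isg15 and 0.0458 for Usp18.

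Interferon response elements hold the letters GAAANNGAA, found on either strand in 2638 of 27025 genes with a promoter (9.76%) and in 11 of 18 genes of this list. The promoter of Isg15 (chr4:156200769-156201068 on the - strand) had 3 matches that overlap each other, and is shown with them in capitals as the fullest match among the genes named.
Isg15: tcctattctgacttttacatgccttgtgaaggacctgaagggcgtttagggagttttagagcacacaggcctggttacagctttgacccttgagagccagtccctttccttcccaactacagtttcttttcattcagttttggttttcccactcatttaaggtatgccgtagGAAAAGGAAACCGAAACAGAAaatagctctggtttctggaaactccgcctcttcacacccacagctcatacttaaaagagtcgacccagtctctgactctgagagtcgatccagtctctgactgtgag

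Genes of DNA replication had interactions above 0. Of 29 kept, 19 were called above 0 and 0 below 0 (3.17% and 2.59% of all genes), and all 29 values were above 0, between 0.32 and 2.69. The median interaction was 0.98, with a median response of 0.53 in DBA/2 cells and -0.35 in AKR cells. Over the 8 DBA/2 arrays 19 of the 29 rose and 0 fell (9.39% and 8.14% of all genes tested). In AKR cells 11 had a response called below 0 and 0 above 0 (9.63% and 10.1% of all genes). Over all 16 labelled arrays 7 were called, all above 0, against 64 of all 13732 probes. Mcm6, a subunit of the replicative helicase, had 8.72, 8.39, 8.51 and 8.12 in loaded DBA/2 cells, 6.71, 6.70, 6.63 and 6.91 in unloaded DBA/2 cells, 6.39, 6.19 and 6.90 in loaded AKR cells, and 7.0, 6.95 and 7.19 in unloaded AKR cells. The loaded DBA/2 arrays lay above all others. Mcm6 rose by 1.70 ± 0.13 in DBA/2 cells (3.25-fold, adjusted p = 1.73e-06), and its interaction was 2.25 ± 0.23 over the 14 arrays and 1.93 ± 0.28 over all 16 (adjusted p = 0.00119). Mcm4, of the same complex, rose by 1.2 ± 0.09 (adjusted p = 2.51e-06), with an interaction of 1.56 ± 0.14.

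Tk1, thymidine kinase of S phase, had 6.64, 5.90, 6.39 and 5.99 in loaded DBA/2 cells, 5.19, 4.81, 4.92 and 5.13 in unloaded DBA/2 cells, 4.95, 4.83 and 4.83 in loaded AKR cells, and 6.34, 6.39 and 6.29 in unloaded AKR cells. Loaded DBA/2 and unloaded AKR cells shared the high range and the other groups the low range. Tk1 rose by 1.22 ± 0.16 in DBA/2 cells (adjusted p = 1.44e-04), against an AKR response of -1.47 ± 0.16, but its dimmer probe had an interaction of 0.44 and was not called. Uhrf1, which keeps DNA methylation through replication, rose by 1.62 ± 0.21 in DBA/2 cells (adjusted p = 1.47e-04), and its interaction was 2.61 ± 0.28 over the 14 arrays and 2.16 ± 0.38 over all 16 (adjusted p = 0.00506). Outside the list, Fignl1 and Msh6, which act in DNA repair, rose in DBA/2 cells by 1.42 ± 0.12 and 0.93 ± 0.08 (adjusted p = 3.92e-06 and 6.37e-06), and both interactions were also called over all 16 arrays (1.78 ± 0.17 and 1.09 ± 0.14). Clspn, which carries the replication checkpoint signal to CHK1, had an interaction of 2.32 ± 0.22 by its brightest probe and of -0.30 by its lowest of 4.

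Of 13 genes of mitosis kept, 7 were called above 0 and 0 below 0 (3.17% and 2.59% of all genes), with a median of 0.92. The median response was 0.28 in DBA/2 cells, where 1 of them rose (9.39% of all genes tested). In AKR cells the median response was -0.69, and 9 were called below 0 (9.63% of all genes). Top2a, topoisomerase II of dividing cells, had 5.22 to 5.56 in loaded DBA/2 cells, 4.58 to 4.81 in unloaded DBA/2 cells, 4.05 to 4.13 in loaded AKR cells and 5.0 to 5.39 in unloaded AKR cells. Its loaded AKR mean of 4.09 lay below the median of all values. Top2a rose by 0.71 ± 0.10 in DBA/2 cells (adjusted p = 3.14e-04), and its interaction was 1.84 ± 0.16. Prc1, which bundles the microtubules of the spindle midzone, had an interaction of 2.09 ± 0.24 and Nusap1, a spindle protein, of 1.67 ± 0.21. Prc1 had a DBA/2 response of 0.54 ± 0.16, against an AKR response of -1.55 ± 0.18, and Nusap1 had 0.13 ± 0.14 in DBA/2 cells, against -1.54 ± 0.16 in AKR cells.

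Promoters of many S-phase genes bind E2F. The letters TTTNNCGC were found on either strand in 743 of 7761 tested genes with a promoter (9.57%), in 10 of 24 replication genes (41.7%) and in 1 of 13 mitosis genes. Among called genes they were found for 42 of 241 above 0 (17.4%) and 11 of 190 below 0 (5.79%). The 3 sets of letters were searched apart. Over 32851 promoters, matches of TGATGNAA overlapped those of GAAANNGAA in 10 and those of TTTNNCGC in 0, and matches of TTTNNCGC overlapped those of GAAANNGAA in 23. The promoter of Mcm6 (chr1:128359656-128359955 on the - strand) is shown because it had the most matches among the replication genes named, 3 in all, with the matches of both strands overlapping at the first place in capitals.
Mcm6: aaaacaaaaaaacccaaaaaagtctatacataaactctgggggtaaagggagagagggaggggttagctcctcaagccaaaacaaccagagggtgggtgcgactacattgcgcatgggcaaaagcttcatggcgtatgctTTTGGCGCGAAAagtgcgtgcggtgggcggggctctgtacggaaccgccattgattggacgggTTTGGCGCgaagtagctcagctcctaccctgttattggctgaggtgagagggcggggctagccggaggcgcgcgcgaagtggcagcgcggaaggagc

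**Figure D3:**
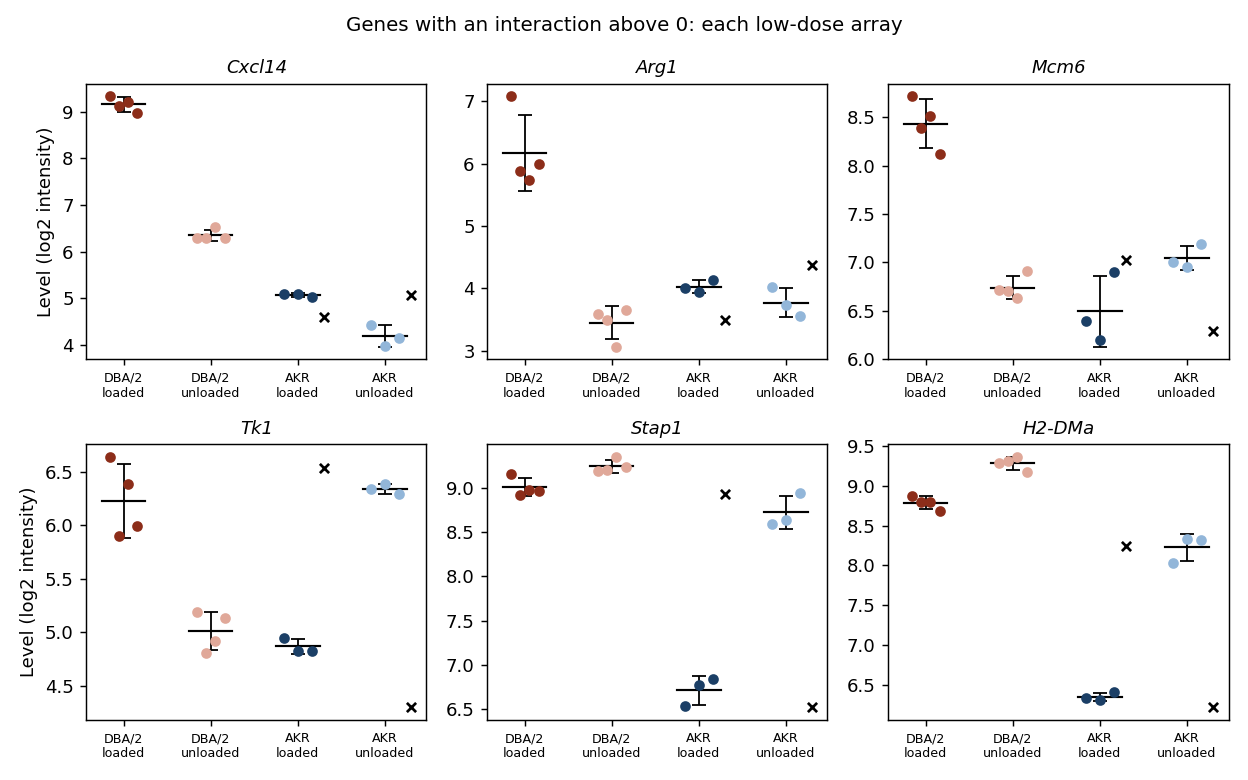
The level of 6 genes in each low-dose array (y axis, log2 intensity), by group, with filled points for the 14 arrays used, bars for the mean and SD over them, and crosses for the 2 arrays left out. Loaded DBA/2 cells are the highest group for Cxcl14, Arg1 and Mcm6, and loaded AKR cells the lowest for Stap1 and H2-DMa.

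A further group of genes called above 0 differed through lower levels in loaded AKR cells. Stap1, a signalling adaptor, had 9.16, 8.92, 8.98 and 8.97 in loaded DBA/2 cells, 9.19, 9.20, 9.35 and 9.24 in unloaded DBA/2 cells, 6.53, 6.77 and 6.84 in loaded AKR cells, and 8.59, 8.64 and 8.94 in unloaded AKR cells. The loaded AKR arrays stood below all others. Its DBA/2 response was -0.24 ± 0.10, against -2.01 ± 0.12 in AKR cells (4.04-fold lower). Pald1, a phosphatase domain protein, had a DBA/2 response of -0.05 ± 0.12, against -1.92 ± 0.14 in AKR cells. Mef2c, a transcription factor of muscle and myeloid cells, had -0.12 ± 0.08 in DBA/2 cells, against -1.37 ± 0.09 in AKR cells, and Lbh, a transcriptional cofactor, had -0.07 ± 0.08, against -1.24 ± 0.09. None of Stap1, Pald1, Mef2c and Lbh passed the threshold in the 8 DBA/2 arrays (adjusted p = 0.0676, 0.808, 0.357 and 0.578), and none was called over all 16 labelled arrays (adjusted p = 0.571 to 0.728).

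MHC class II presentation genes were lower with loading in both strains. All 7 kept fell in the 8 DBA/2 arrays (8.14% of all genes tested), and 6 had an AKR response called below 0 (9.63% of all genes). The 1 called interaction was H2-DMa, which loads peptide on class II molecules. It had 8.68 to 8.87 in loaded DBA/2 cells, 9.17 to 9.36 in unloaded DBA/2 cells, 6.31 to 6.41 in loaded AKR cells and 8.03 to 8.33 in unloaded AKR cells. H2-DMa fell by 0.49 ± 0.09 in DBA/2 cells (adjusted p = 0.0012), against an AKR response of -1.87 ± 0.10. P2ry6, the receptor for UDP, was the 1 of 7 purinergic receptors called: it fell by 0.73 ± 0.08 in DBA/2 cells (adjusted p = 4.32e-05), against an AKR response of -1.55 ± 0.10. Of 13 targets of p53 kept, 5 were called above 0 and 0 below 0 (3.17% and 2.59% of all genes), with a median of 0.27. They did not share a shape, since Phlda3 and Sesn1 had AKR responses of -1.13 ± 0.10 and -1.70 ± 0.10, whereas the kinase Plk2 rose by 2.10 ± 0.12 in DBA/2 cells (adjusted p = 1.92e-07), against an AKR response of 1.12 ± 0.15. Leaving out any of 10 of the 14 arrays took the call from Plk2 (0.98 ± 0.20). The cell cycle inhibitor Cdkn1a and Zmat3 were the other called members (0.74 and 0.88).

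Sterol genes differed mainly through DBA/2 cells. Of 17 genes kept of cholesterol synthesis and uptake, 7 were called below 0 and 0 above 0 (2.59% and 3.17% of all genes). The median was -0.45. In the 8 DBA/2 arrays 12 fell and 0 rose (8.14% and 9.39% of all genes tested), with a median response of -0.77. In AKR cells the median response was -0.37, with 5 called below 0 (9.63% of all genes). Squalene epoxidase (Sqle) had 6.74 to 6.87 in loaded DBA/2 cells, 8.24 to 8.66 in unloaded DBA/2 cells, 6.77 to 7.17 in loaded AKR cells and 7.36 to 7.59 in unloaded AKR cells. The loaded groups overlapped and the unloaded groups did not. Sqle fell by 1.72 ± 0.10 in DBA/2 cells (adjusted p = 3.18e-07), against an AKR response of -0.46 ± 0.12. Fdps and Mvd, earlier enzymes of the pathway, fell by 1.97 ± 0.12 and 1.26 ± 0.11 in DBA/2 cells (adjusted p = 4e-07 and 7.54e-06), against -0.80 ± 0.13 and -0.24 ± 0.13 in AKR cells. Over all 16 labelled arrays 4 of the list were called below 0, against 48 of all 13732 probes. Sqle and Mvd were among the 4 (adjusted p = 0.00566 and 0.00414).

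Of 11 LXR targets and sterol export genes kept, 1 was called in each direction (2.59% of all genes below 0 and 3.17% above 0). The exporters Abca1 and Abcg1 had interactions of 0.35 and 0.13 and were not called. Lpl, the lipase that frees fatty acids from lipoproteins, rose by 1.06 ± 0.10 in DBA/2 cells (adjusted p = 8.02e-06), against an AKR response of 0.16 ± 0.12. Its interaction was 0.90 ± 0.15 over the 14 arrays and 0.95 ± 0.15 over all 16 (adjusted p = 0.00181). Nr1h3, which encodes LXR alpha, had an interaction of -0.90 ± 0.17 with a DBA/2 response of 0.03 ± 0.11, against 0.93 ± 0.13 in AKR cells. Lysosomal hydrolases were near the median of all genes (0.16 over 34 kept), with 3 called above 0 (3.17% of all genes). The 3 were the protease Napsa (0.82 ± 0.16) and the mannosidases Manba and Man2b1 (0.79 ± 0.13 and 0.60 ± 0.11). A further probe of Manba (0.35) and 2 further probes of Napsa were not called.

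Targets of NRF2, the regulator of the antioxidant response, rose in DBA/2 cells (8 of 12 kept, against 9.39% of all genes tested, and 0 fell). Their AKR responses were called above 0 in 7 (10.1% of all genes), and the median interaction was 0.00. The members not called had interactions between -0.07 and 0.33. Hmox1, Gclc, Srxn1 and Me1 lay between -0.07 and 0.00, and Nqo1, Gclm, Txnrd1 and Prdx1 at 0.32 to 0.33. The 1 called was the autophagy receptor Sqstm1, with a DBA/2 response of 0.43 ± 0.11, against 1.62 ± 0.13 in AKR cells. Of 14 genes kept of glycolysis and hypoxia, Vegfa and Hk2 were called, both below 0 (2.59% of all genes). Vegfa, the endothelial growth factor, had 7.82 to 8.15 in loaded DBA/2 cells, 5.46 to 6.43 in unloaded DBA/2 cells, 8.96 to 9.44 in loaded AKR cells and 5.26 to 5.99 in unloaded AKR cells. Vegfa rose by 2.08 ± 0.17 in DBA/2 cells (adjusted p = 4.18e-06), against an AKR response of 3.69 ± 0.22. Its interaction of -1.61 ± 0.29 over the 14 arrays was 0.18 ± 1.11 over all 16 by their labels.

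**Figure D4:**
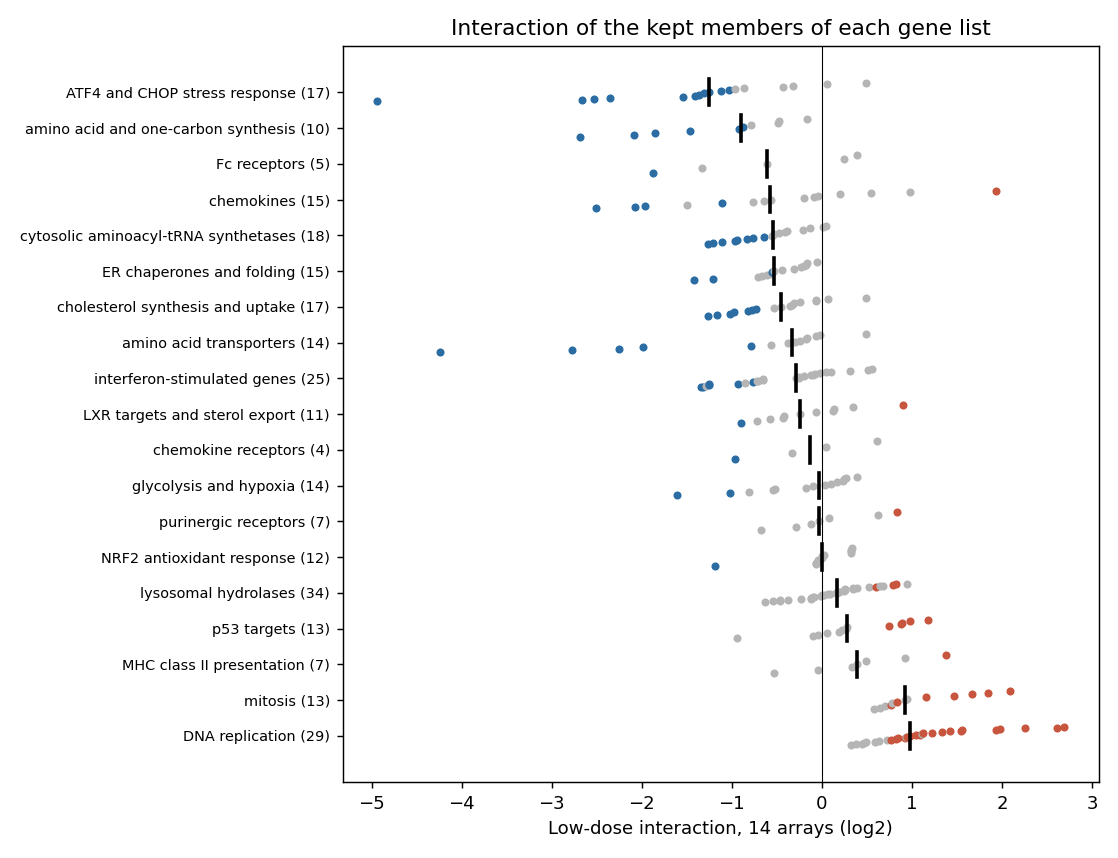
Each point is a kept member of a gene list, with its low-dose interaction over the 14 arrays on the x axis (log2), coloured where called and grey where not, and the black bar is the list's median. The number of kept members stands beside each name. The medians run between -1.25 for the ATF4 and CHOP stress response and 0.98 for DNA replication.

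The cells had the markers of macrophages. Of 11 macrophage genes on the array 9 had a mean level above the median of all values, and the mean over the list was 9.14 to 9.25 in loaded DBA/2 cells, 9.30 to 9.37 in unloaded DBA/2 cells, 8.51 to 8.67 in loaded AKR cells and 9.06 to 9.18 in unloaded AKR cells. Of 10 macrophage genes kept, 4 were called above 0 and 0 below 0 (3.17% and 2.59% of all genes). The 4 were Adgre1, Cd14, Aif1 and Itgam (1.08, 1.0, 0.97 and 0.62). The others kept lay between -0.34 (Spi1) and 0.55 (Mrc1). None of 7 T and NK cell markers and none of 5 mast and erythroid markers had a mean level above the median of all values, whereas 2 of 5 B cell markers (the highest mean 5.71), 3 of 10 neutrophil and granule markers (8.43), 2 of 6 stromal markers (7.49), 1 of 6 dendritic cell markers (4.62) and 1 of 6 osteoclast markers (4.45) did. Neutrophil and granule markers averaged 4.34 to 4.49 in loaded DBA/2 cells, 4.26 to 4.48 in unloaded DBA/2 cells, 4.5 to 4.66 in loaded AKR cells and 4.52 to 4.62 in unloaded AKR cells. No marker of these 7 lists had a called interaction. Stromal markers averaged 4.21 to 5.47 in loaded DBA/2 cells, 4.43 to 5.25 in unloaded DBA/2 cells, 4.39 to 4.81 in loaded AKR cells and 4.36 to 4.45 in unloaded AKR cells. Fewer cells of a type and less RNA per cell cannot be told apart in these bulk cultures, and the part of the lower macrophage level of loaded AKR cells in the other results was not tested.

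The same interaction was tested in the high-dose experiment, in which females, 100 µg/ml of another AcLDL preparation and an earlier array version were used, so dose, sex, preparation and array cannot be told apart. It called 1980 of 13339 probes, and of 9312 genes 709 above 0 (7.61%) and 764 below 0 (8.2%). Of 7208 genes kept in both experiments, 269 were called above 0 at low dose and 95 of these (35.3%) also at high dose, which is 15.3% of the 622 called above 0 at high dose. In the other direction 63 of 203 (31.0%) were shared, 9.59% of the 657 called below 0 at high dose. The shares of all 7208 genes called at high dose were 8.63% above 0 and 9.11% below 0. A call in the opposite direction at high dose was made for 26 of the 269 and 10 of the 203. The median interaction of the 269 genes was 0.94 at low dose and 0.24 at high dose, and that of the 203 genes -0.88 at low dose and -0.17 at high dose.

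Of the 62 genes named by rule, 57 had a kept probe at high dose, and 37 were called there with the same sign, 3 with the opposite sign and 17 not at all. Chac1 had a high-dose interaction of -2.68 ± 0.14 (adjusted p = 5.04e-12), with 6.16 to 6.46 log2 units in loaded DBA/2 cells, 5.87 to 6.17 in unloaded DBA/2 cells, 8.61 to 8.84 in loaded AKR cells and 5.51 to 6.12 in unloaded AKR cells. Only the loaded AKR arrays stood apart. Trib3 had -2.30 ± 0.13 (adjusted p = 1.2e-11) and Asns -1.48 ± 0.11 (adjusted p = 2.98e-10). Slc7a5 was below 0 again (-0.83 ± 0.09), but its DBA/2 response was 0.20 ± 0.06 at high dose, against an AKR response of 1.03 ± 0.06. Among genes above 0, Stap1 had 1.71 ± 0.13 (adjusted p = 1.37e-09), Uhrf1 1.71 ± 0.13 (adjusted p = 1.19e-09) and Cxcl14 1.66 ± 0.11 (adjusted p = 1.44e-10). Uhrf1 had a DBA/2 response of 0.55 ± 0.09 and an AKR response of -1.16 ± 0.09.

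By list, 10 of 15 ATF4 and CHOP genes, 7 of 12 aminoacyl-tRNA synthetases, 4 of 14 amino acid transporters and 3 of 8 genes of amino acid synthesis were called below 0 at high dose, with 1 transporter and 1 synthesis gene called above 0. Over all genes the shares called at high dose were 8.2% below 0 and 7.61% above 0. Of 15 ER chaperones 3 were called above 0 and 1 below 0, with a median of 0.18, the opposite sign to the low-dose median of -0.53. Of 29 replication genes 18 were called above 0, and of 14 mitosis genes 7 above 0 and 1 below 0. Some genes that differed mainly through AKR cells at low dose did not pass at high dose. Slc7a11 had 0.15 ± 0.10 (adjusted p = 0.282), the opposite sign to low dose. Slc25a33 had -0.18 ± 0.12 (adjusted p = 0.296) and Cxcl2 -0.06 ± 0.15 (adjusted p = 0.817). Of genes that differed mainly through DBA/2 cells, Nupr1, Herpud1 and Mcm6 passed with the same sign, and several others did not pass. Cd86 had -0.02 ± 0.11 (adjusted p = 0.925), with responses of -1.14 ± 0.08 in DBA/2 cells and -1.13 ± 0.08 in AKR cells. Ccl7 had -0.26 ± 0.13 (adjusted p = 0.156), Arg1 0.62 ± 0.24 (adjusted p = 0.0663) and Sqle -0.18 ± 0.12 (adjusted p = 0.301). Of the cholesterol synthesis genes 0 of 18 were called below 0 and 2 above 0. The 3 genes called with the opposite sign were Fcgr4 (0.66 ± 0.08, adjusted p = 2.82e-06), Ccl12 (0.42 ± 0.11, adjusted p = 0.00848) and Plk2 (-0.89 ± 0.13, adjusted p = 2.55e-05). For Fcgr4 the high-dose responses were -0.42 ± 0.06 in DBA/2 cells and -1.09 ± 0.06 in AKR cells. Whether an interaction differed between the experiments was not tested, since their tables were normalized apart.

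**Figure D5:**
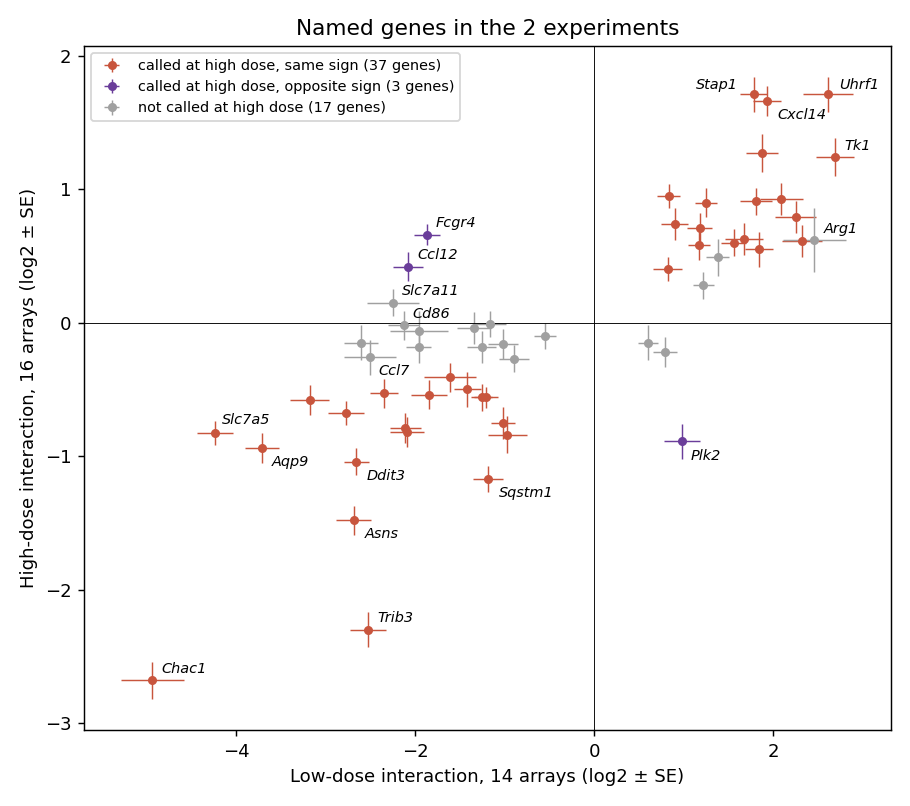
Each point is a named gene with a kept probe in both experiments, with its interaction over the 14 low-dose arrays on the x axis and over the 16 high-dose arrays on the y axis (log2 ± SE). The 37 genes called at high dose with the same sign lie in the lower left and upper right, and Fcgr4, Ccl12 and Plk2 lie in the other corners.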

How the data were processed

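Per the labels and the methods, total RNA of 32 macrophage cultures was hybridized to Illumina MouseRef-8 arrays, and the deposited log2 values had been quantile-normalized by the authors in lumi 2.6.0, apart for each experiment. Scanner intensities and detection calls were not used here, and the number of arrays limits the precision. Each chip carried samples of every group, but the chip of each array is not given in the sources used here, so it could not enter as a block.

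Probes with a group mean above the median of all values were kept. Per the methods, the authors excluded probes over sequence variants between the strains. Such probes were not removed here, and their part in the calls was not tested. The model strain + loading + strain x loading was fitted with limma 3.58.1 in R 4.3.3 (lmFit, contrasts.fit and eBayes), p-values were adjusted by Benjamini-Hochberg over all kept probes, and calls were made under 0.01. Intervals written as ± after a log2 change are standard errors. Of 25697 low-dose probes, 23978 were paired with 1 gene and 1719 with none, and of 24613 high-dose probes, 20984 with 1 gene, 1 with several and 3628 with none. A gene was read from its kept probe with the highest mean. Tables were joined in Python 3.11.15 with pandas 2.3.3 and numpy 2.4.6, and figures drawn with matplotlib 3.10.9. Promoters and gene names came from RefSeq GRCm38.p6, and 7761 of 9472 genes tested had a promoter there.

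Genes were named in the text by rule: the 12 with the smallest p on each side of 0, up to 3 called members of each pathway list in each direction, 6 called genes whose responses oppose each other most, and 6 with the largest DBA/2 response among those larger in DBA/2 than in AKR cells. This gave 62 genes, and further members of the lists are named beside them. The arrays, the gene lists and the tests were chosen with earlier results of these data known.

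On simulated data the 14-array fit recovered 52% of interactions of 1 log2 unit and 98% of those of 2, and the fit of all 16 labelled arrays recovered 46% and 99%. Noise was simulated with the spread within groups of the arrays in each fit, which for the 14-array fit excludes the 2 arrays left out. The recovery given for that fit holds for this spread alone. The noise was independent between arrays, and the 100 probes changed for each size were picked at random. The figures for 16 arrays therefore do not cover genes in which the 2 arrays left out stand with the other AKR group. Chac1, at -2.99 ± 1.22 over the 16 labelled arrays, was not called there. Alternatives covered the arrays used, the filter, an offset of 50 before log2, renormalization, the threshold, a replicate block and leaving out each array.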

Additional observations from a re-analysis of the deposited data

Results flagged for a closer look

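In 7 of 124 groups of 4 arrays tested, the highest or lowest array of a named gene stood apart from the other 3, which chance gives in about 1 in 20 groups. In unloaded DBA/2 cells, replicate 3 had 8.6 log2 units of Ddit3 (the others 8.41 to 8.43) and 6.53 of Cxcl14 (6.29 to 6.3), replicate 2 had 4.58 of Top2a (4.78 to 4.81), 11.45 of Fcgr4 (11.05 to 11.1) and 6.59 of Mvd (6.21 to 6.27), and replicate 4 had 12.13 of P2ry6 (11.99 to 12.01). In loaded DBA/2 cells, replicate 2 had 11.23 of P2ry6 (11.33 to 11.35).

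The 62 named genes were picked in the 14-array fit. All 14 arrays are among the 16 labelled ones, so a pass here is no independent support. Over all 16 low-dose arrays by their labels, the interaction itself passed limma's test for 16 of the 62 named genes. On the log2 scale, DBA/2 minus AKR, those below 0 were Cox6a2 (-2.47), Nupr1 (-2.09), Cd86 (-1.88), Herpud1 (-1.26), Ccl7 (-2.65), Fcgr4 (-1.72), Sqle (-1.67) and Mvd (-1.24). Those above 0 were Cxcl14 (2.27), Mcm4 (1.38), Msh6 (1.09), Fignl1 (1.78), Arg1 (2.74), Uhrf1 (2.16), Mcm6 (1.93) and Lpl (0.95).

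At high dose the interaction passed for 40 of the 57 named genes with a kept probe there. Those below 0 were Slc7a5 (-0.83), Aqp9 (-0.94), Ddit3 (-1.04), Cox6a2 (-0.58), Nupr1 (-0.53), Chac1 (-2.68), Slc1a4 (-0.68), Asns (-1.48), Gch1 (-0.79), Trib3 (-2.3), Mthfd2 (-0.82), Phgdh (-0.54), Sars (-0.56), Aars (-0.56), Herpud1 (-0.5), Plk2 (-0.89), Ccrl2 (-0.84), Sqstm1 (-1.17), Vegfa (-0.41) and Hk2 (-0.75). Those above 0 were Tk1 (1.24), Cxcl14 (1.66), Top2a (0.55), Stap1 (1.71), Mcm4 (0.6), Clspn (0.61), Mef2c (0.9), Pald1 (1.27), Fignl1 (0.91), Lbh (0.58), Ccl12 (0.42), Phlda3 (0.71), Fcgr4 (0.66), P2ry6 (0.95), Uhrf1 (1.71), Mcm6 (0.79), Prc1 (0.93), Nusap1 (0.63), Lpl (0.74) and Napsa (0.4).

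The 2 low-dose arrays left out had the values of the opposite AKR group: the array labelled AKR unloaded 1 correlated with the loaded AKR arrays at a mean r of 0.986 and the array labelled AKR loaded 2 with the unloaded AKR arrays at 0.985. An exchange of their labels was not tested, and it would bear on every value from the 16 arrays by their labels.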

How the results depend on the processing

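The count of 711 probes with a called low-dose interaction rested on the 2 arrays left out: all 16 arrays by their labels gave 112 probes, leaving out AKR unloaded 1 alone gave 168 and leaving out AKR loaded 2 alone gave 145, both chosen after seeing the data. The interaction of Vegfa was then 0.18 with all 16 arrays. Among the 62 named genes, 16 kept their call with all 16 arrays, 45 lost it and 1 changed sign. With no filter on low values 385 probes were called, with 50 added before log2 1187, and at an adjusted p of 0.05 1423. Leaving out each of the 14 arrays in turn gave 505 to 626, and among the named genes 6 lost the call at least once (P4hb, Plk2, Ccrl2, Isg15, Napsa and Man2b1). Loading called 1221 probes in DBA/2 cells with no filter and 1618 to 1936 with an array left out. In AKR cells it called 0 probes in limma with all 16 labelled arrays (1877 at an unadjusted p under 0.05, with no other tool run), against 1925 to 2065 with an array left out of the 14-array fit. The high-dose interaction called 1672 to 1980 with an array left out. The 158 genes called the same way at both doses were 299 at an adjusted p of 0.05 and 21 with all 16 labelled low-dose arrays. The cause of these shifts was not tested.

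No source says what a replicate number marks. Deviations from the group means correlated at a mean r of 0.081 over 18 pairs of arrays with the same number, 7 of them above 0.1, against -0.026 over 55 pairs with different numbers, and 11 of 14 arrays correlated best with their own number, a hint from the data and not the design. Not every pair passed 0.1, so the numbers were not taken as pairs. With the replicate block 660 probes had a called low-dose interaction, 2002 responded in DBA/2 cells, 2325 in AKR cells and 2118 had a called high-dose interaction, and P4hb was the 1 named gene that lost its call (-0.53). With 3 or 4 arrays in a group, an interaction of 1 log2 unit was recovered in 52% of simulated cases, so a missing call does not show equal responses.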
